A study of Mus musculus with 28 samples.

Results

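The genes described here are the cytochrome P450 and flavin monooxygenase genes of the mouse, measured in dendritic cells sorted from kidney. Members were taken from the array table by gene symbol (Cyp or Fmo followed by a digit), with the brightest probeset of each gene by its mean over 28 arrays. This gave 91 of 19272 genes, of which 44 lay above the 40th percentile of their array in at least 3 arrays and were tested, while 47 were too dim for that and are given by level only. Total RNA from freshly isolated cells was amplified and hybridised to Affymetrix arrays, and levels are log2 array signal.

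Graft cells came from kidney allografts 3 days after transplantation, and donor and host cells were sorted separately from the same grafts. The strain label of donor cells is BALB/c, and their sort was on CD45.2, whereas host cells have the strain label C57BL/6 and were sorted on CD45.1. The groups were donor medulla, donor cortex, host medulla and host cortex with 3 arrays each, and homeostatic (healthy kidney) BALB/c medulla, BALB/c cortex, C57BL/6 medulla and C57BL/6 cortex with 4 arrays each. No knockout, transgene or drug is named in the labels, and no age or sex. The cells of every group were gated on CD45, CD11c and MHC class II after collagenase digestion. The arrays carry 11 mouse numbers, and a number joins the cortex and medulla arrays of 1 mouse and, for grafts, also its donor and host arrays. The non-coding RNA Xist, a transcript of female cells, lay between 6.07 and 6.96 and below the 40th percentile in every array.

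Cytochrome P450 enzymes are heme proteins that insert oxygen into lipids, steroids, vitamins and foreign compounds, with electrons passed on by a reductase or by ferredoxin. Flavin monooxygenases oxidise the nitrogen and sulfur of foreign compounds and carry a flavin in place of heme. In the kidney many of these enzymes belong to the epithelial cells of the proximal tubule in the cortex, where the Cyp4a family hydroxylates fatty acids under the control of the nuclear receptor PPAR alpha. Leukocytes use a smaller set, among them enzymes that inactivate leukotrienes or oxidise cholesterol.

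Markers of cells outside the sort gate were measured beside those of the sorted cells. The mean of 14 proximal tubule markers was 7.26 ± 0.11 in donor medulla and 11.32 ± 0.52 in donor cortex (SD, n = 3 each), and 7.41 ± 0.31 in host medulla and 11.27 ± 0.75 in host cortex. It was 7.72 ± 0.22 in homeostatic BALB/c medulla and 8.77 ± 0.81 in BALB/c cortex (n = 4 each), and 7.84 ± 0.54 in C57BL/6 medulla and 10.04 ± 0.79 in C57BL/6 cortex. The mean of 8 leukocyte markers lay between 8.60 and 12.20 in the graft arrays and between 11.98 and 12.56 in the homeostatic arrays, and that of 8 dendritic cell markers was lowest in host medulla (8.67 ± 0.43) and highest in C57BL/6 medulla (11.04 ± 0.16). BALB/c medulla replicate 1 correlated by 0.759 on average with the other arrays of its group, the lowest of the 28 arrays. In such bulk samples, fewer cells of a type and less RNA per cell cannot be told apart.

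Medulla was first set against cortex within the graft. The members that fell in both donor and host cells were the fatty acid hydroxylases Cyp4a10, Cyp4a14, Cyp4a31, Cyp4a12a and Cyp4a12b, Cyp4b1, the epoxygenase-family genes Cyp2j11 and Cyp2j13, Cyp2e1, Cyp2d26 and Fmo1. In donor cells 11 members were lower and 2 higher in medulla by limma (adjusted p under 0.05 over 14346 genes), where 1.92% of all genes tested were lower, 0.627% higher and 2.54% either. In host cells 12 were lower and 0 higher, where 2.43% of all genes were lower, 1.86% higher and 4.29% either. The 11 lower in donor medulla were also lower in host medulla, which holds cells of the same 3 grafts. The additional member lower in host medulla was Cyp51. Of the 11, Cyp2e1, Cyp2j11, Cyp2j13 and the 5 Cyp4a genes were below the 40th percentile in all 6 graft medulla arrays and in at least 13 of the 14 medulla arrays of the series, so these 8 met the filter through cortex, where they were high, and counts of tested members that include them carry that choice. The signal of such a dim probe may not be above background, so the size of their difference is a lower bound. Cyp4b1 and Fmo1 were above that level in all 28 arrays. Over all 91 members, dim ones included, the median difference was 0.12 in donor and 0.05 in host cells, beside 0.13 and 0.11 over all genes. The largest fall among members was 6.16 and the largest rise that passed was 0.85 on the log2 scale, and 71 and 73 of the 91 lay within 0.5 of 0.

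**Figure D1:**
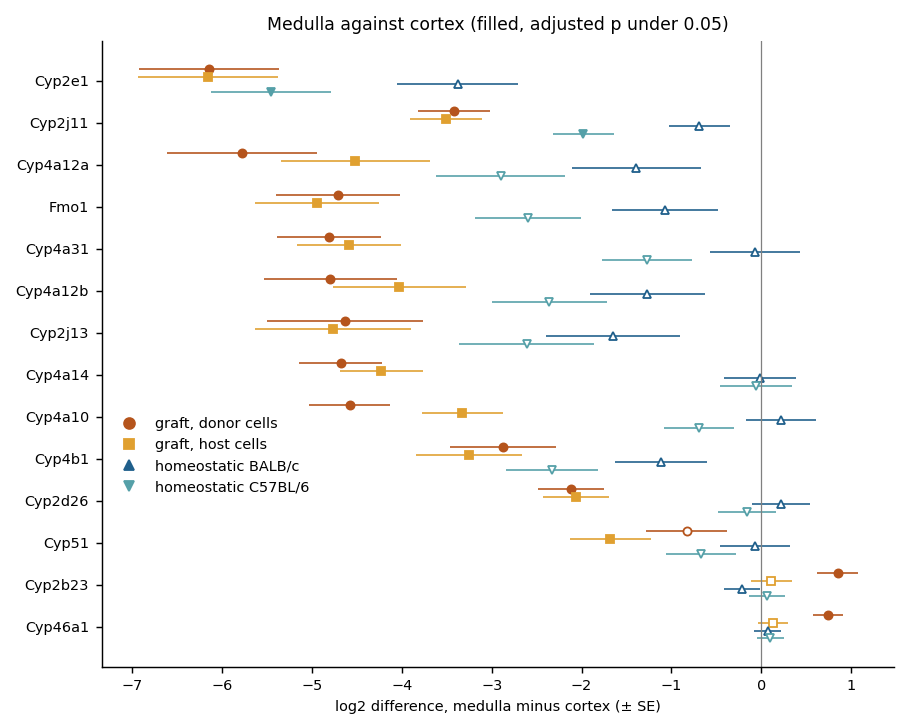
Medulla minus cortex on the log2 scale with standard errors for the 14 members that passed in any of the 4 kinds of cells, filled where the adjusted p was under 0.05. The 11 upper members lie left of -2 in both graft cell types, and Cyp4a10, Cyp4a14 and Cyp2d26 lie within 1 of 0 in both homeostatic strains.

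Some of the members that fell have a RefSeq promoter, and these differ in the sequence just before the transcription start. The runs of 4 are shown because they stand for the xenobiotic (Cyp2e1, Cyp2d26), epoxygenase (Cyp2j11) and hydroxylase (Cyp4b1) members of the set. Each run is the 250 bases before the annotated start in GRCm38.p6, read 5′ to 3′ along the gene's own strand, with the TATA box TATAAA or the nuclear receptor motif AGGTCA, on either strand, in capitals. Cyp2e1 lies at chr7:140763569-140763818 (plus strand), Cyp2d26 at chr15:82794246-82794495 (minus strand), Cyp2j11 at chr4:96348681-96348930 (minus strand) and Cyp4b1 at chr4:115647722-115647971 (minus strand).
Cyp2e1: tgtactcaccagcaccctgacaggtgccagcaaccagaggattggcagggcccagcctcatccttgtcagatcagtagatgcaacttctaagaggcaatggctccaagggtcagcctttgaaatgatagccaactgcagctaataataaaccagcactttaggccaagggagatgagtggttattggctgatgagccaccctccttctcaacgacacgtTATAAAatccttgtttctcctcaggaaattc
Cyp2d26: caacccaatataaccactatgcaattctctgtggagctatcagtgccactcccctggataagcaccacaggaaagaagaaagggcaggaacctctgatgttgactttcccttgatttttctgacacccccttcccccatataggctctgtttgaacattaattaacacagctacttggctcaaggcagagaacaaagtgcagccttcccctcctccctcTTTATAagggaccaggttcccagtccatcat
Cyp2j11: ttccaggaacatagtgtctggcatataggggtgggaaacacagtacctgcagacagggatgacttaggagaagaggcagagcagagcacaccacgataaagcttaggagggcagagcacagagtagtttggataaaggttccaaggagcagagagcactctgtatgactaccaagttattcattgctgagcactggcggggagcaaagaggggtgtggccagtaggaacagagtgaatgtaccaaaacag
Cyp4b1: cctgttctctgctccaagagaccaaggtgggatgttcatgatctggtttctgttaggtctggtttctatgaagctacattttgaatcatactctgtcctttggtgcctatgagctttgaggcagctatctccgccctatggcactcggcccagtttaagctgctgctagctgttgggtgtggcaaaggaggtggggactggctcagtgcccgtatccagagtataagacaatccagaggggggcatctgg
Cyp2e1 had TATAAA at position -31 from the start, and Cyp2d26 had its other-strand form TTTATA, also at -31. Neither TATAAA nor AGGTCA was in the windows of Cyp2j11 and Cyp4b1. RefSeq promoters were matched for 8 of the 14 members in the plot of medulla against cortex. Of these 8, 2 held TATAAA, against 12.4% of 32851 promoters, 5 held CCAAT, against 33.8%, and 1 held AGGTCA, against 14.0%. The letters CAAAGTCCA, a form of the HNF4A motif, were in 0 of the 8, against 0.384% of promoters. Both strands were searched for each motif, and matches of different motifs could overlap.

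Of 22 fatty acid and eicosanoid enzymes measured, 16 were tested and 8 were lower in both donor and host medulla. Of all genes tested, 1.92% were lower in donor and 2.43% in host medulla. All of the 8 but Cyp4b1 met the filter through cortex, where they were high, so nothing is read from the count. Cyp4a14, a hydroxylase of medium and long fatty acids, had 6.78, 6.70 and 7.02 in donor medulla, against 10.06, 11.80 and 12.69 in donor cortex (replicates 1 to 3). In host cells it had 7.10, 6.69 and 6.84 in medulla, against 9.74, 11.58 and 12.02 in cortex. Every medullary array was below every cortical one, and the smallest of the cortical values came from the same graft, replicate 1, in both. The difference was -4.68 ± 0.46 (SE, adjusted p = 1.5e-06) in donor and -4.23 ± 0.46 (adjusted p = 3.2e-06) in host cells. Homeostatic kidneys held no such step for Cyp4a14: BALB/c medulla had 7.01, 7.20, 7.32 and 7.57, against 7.23, 7.23, 7.21 and 7.47 in BALB/c cortex, and C57BL/6 medulla had 6.69, 6.99, 6.66 and 6.93, against 6.97, 6.84, 6.86 and 6.83 in C57BL/6 cortex. Those groups overlapped, and the differences were -0.01 ± 0.40 and -0.06 ± 0.40.

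Cyp4a10, the family member best known as a target of PPAR alpha, had the same shape. It had 6.29, 6.05 and 6.55 in donor medulla, against 11.48, 10.04 and 11.10 in donor cortex, a difference of -4.58 ± 0.45 (adjusted p = 1.3e-06). Host medulla had 6.42, 6.59 and 6.30, against 8.65, 10.61 and 10.05 in host cortex (-3.33 ± 0.45, adjusted p = 5.2e-05). Graft medulla and graft cortex did not overlap for this gene. BALB/c medulla had 7.17, 6.38, 7.04 and 7.49, against 7.18, 6.62, 6.69 and 6.74 in BALB/c cortex. C57BL/6 medulla had 6.42, 6.04, 6.47 and 6.44, against 8.24, 6.39, 6.50 and 7.01 in C57BL/6 cortex, where replicate 1 stood above the rest.

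Cyp4a31, a close relative of Cyp4a10 on the same stretch of chromosome, had 4.95, 4.69 and 4.89 in donor medulla, against 9.81, 9.52 and 9.63 in donor cortex (-4.81 ± 0.58, adjusted p = 1.9e-05). Host medulla had 4.54, 4.97 and 5.11, against 7.26, 10.76 and 10.38 in host cortex (-4.59 ± 0.58, adjusted p = 2.4e-05). BALB/c cells had 5.24, 4.81, 4.82 and 5.30 in medulla, against 4.95, 4.80, 5.21 and 5.49 in cortex, and the groups overlapped. In C57BL/6 cells Cyp4a31 had 4.97, 4.94, 4.90 and 4.72 in medulla, against 7.30, 6.27, 4.97 and 6.05 in cortex, a step that did not pass (-1.27 ± 0.50, adjusted p = 0.93). Probes of such close copies can pick up each other's transcripts, so the values of Cyp4a10 and Cyp4a31, and those of Cyp4a12a and Cyp4a12b, may not be separate measurements.

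Cyp4a12a, the arachidonic acid hydroxylase that is abundant in male mouse kidney, had 5.96, 5.99 and 5.95 in donor medulla, against 11.26, 11.65 and 12.35 in donor cortex (-5.78 ± 0.83, adjusted p = 0.00014). Host medulla had 6.43, 6.14 and 6.06, against 9.03, 11.36 and 11.79 in host cortex (-4.52 ± 0.83, adjusted p = 0.0014). Unlike Cyp4a14, this gene was also well above its medullary level in part of the homeostatic cortex. C57BL/6 medulla had 6.15, 6.29, 6.04 and 6.24, against 10.99, 10.07, 6.26 and 9.00 in C57BL/6 cortex, and BALB/c medulla had 6.88, 6.83, 6.40 and 6.70, against 9.97, 7.69, 7.67 and 7.05 in BALB/c cortex. Neither homeostatic step passed (-2.90 ± 0.72, adjusted p = 0.15, and -1.39 ± 0.72, adjusted p = 0.76), and C57BL/6 cortex replicate 3 lay among the medullary arrays. Cyp4a12b, its near copy, differed by -4.80 ± 0.74 in donor cells (adjusted p = 3e-04), where medulla had 6.45, 6.46 and 6.47 against 10.95, 11.00 and 11.83 in cortex. In host cells Cyp4a12b had 6.30, 6.24 and 6.38 in medulla, against 8.20, 10.99 and 11.83 in cortex (-4.03 ± 0.74, adjusted p = 0.0013). Its homeostatic cortex was uneven like that of Cyp4a12a. C57BL/6 medulla had 6.28, 6.41, 6.31 and 6.31, against 10.29, 9.36, 6.56 and 8.53 in C57BL/6 cortex (-2.36 ± 0.64, adjusted p = 0.23), and BALB/c medulla had 6.75, 6.93, 6.78 and 6.58, against 9.30, 7.92, 7.79 and 7.11 in BALB/c cortex (-1.27 ± 0.64, adjusted p = 0.73). Neither passed, although the regions did not overlap in either strain.

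Cyp4b1, which activates foreign compounds and hydroxylates fatty acids, had 7.97, 7.99 and 8.16 in donor medulla, against 10.43, 10.23 and 12.07 in donor cortex (-2.87 ± 0.59, adjusted p = 0.0059). Host medulla had 8.05, 7.76 and 8.24, against 10.42, 11.02 and 12.35 in host cortex (-3.25 ± 0.59, adjusted p = 0.0012). Cortex was the higher region in every graft. C57BL/6 cells came close to the threshold, with 8.13, 8.11, 9.04 and 8.07 in medulla, against 11.36, 11.35, 9.39 and 10.56 in cortex (-2.33 ± 0.51, adjusted p = 0.067). BALB/c cells had 8.22, 8.25, 8.17 and 8.34 in medulla, against 10.80, 8.77, 9.74 and 8.17 in cortex (-1.12 ± 0.51, adjusted p = 0.69), and there the regions overlapped.

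Of the Cyp2j genes, whose products are known for epoxidising arachidonic acid, Cyp2j11 and Cyp2j13 fell and Cyp2j6 and Cyp2j9 did not pass. Cyp2j11 had 5.96, 6.82 and 6.07 in donor medulla, against 9.52, 10.16 and 9.44 in donor cortex (-3.42 ± 0.40, adjusted p = 1.2e-05). Host medulla had 5.69, 5.72 and 6.03, against 9.85, 8.94 and 9.20 in host cortex (-3.51 ± 0.40, adjusted p = 5.4e-06). The regions were apart by more than the spread of either. In C57BL/6 cells it had 5.82, 6.08, 5.97 and 5.57 in medulla, against 8.29, 8.47, 6.89 and 7.69 in cortex (-1.98 ± 0.34, adjusted p = 0.014), a call lost without any 1 of cortex replicates 1 and 2 and medulla replicates 1 and 4. BALB/c cells had 5.99, 6.17, 5.92 and 6.27 in medulla, against 7.99, 6.64, 6.24 and 6.23 in cortex (-0.69 ± 0.34, adjusted p = 0.73), with only cortex replicate 1 well above the rest. Cyp2j13 had 6.55, 6.40 and 6.46 in donor medulla, against 10.56, 11.35 and 11.39 in donor cortex (-4.63 ± 0.87, adjusted p = 0.0026). Host medulla had 6.39, 6.38 and 6.54, against 10.58, 11.50 and 11.55 in host cortex (-4.77 ± 0.87, adjusted p = 0.0013). The gene was also high in part of the homeostatic cortex. C57BL/6 medulla had 6.62, 6.36, 7.13 and 6.48, against 11.23, 9.96, 7.51 and 8.33 in C57BL/6 cortex, lower in 4 of 4 pairs though not passing (-2.61 ± 0.75, adjusted p = 0.30). BALB/c medulla had 6.21, 6.51, 6.39 and 7.52, against 11.03, 6.60, 9.09 and 6.52 in BALB/c cortex (-1.65 ± 0.75, adjusted p = 0.69), where 2 arrays were high.

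**Figure D2:**
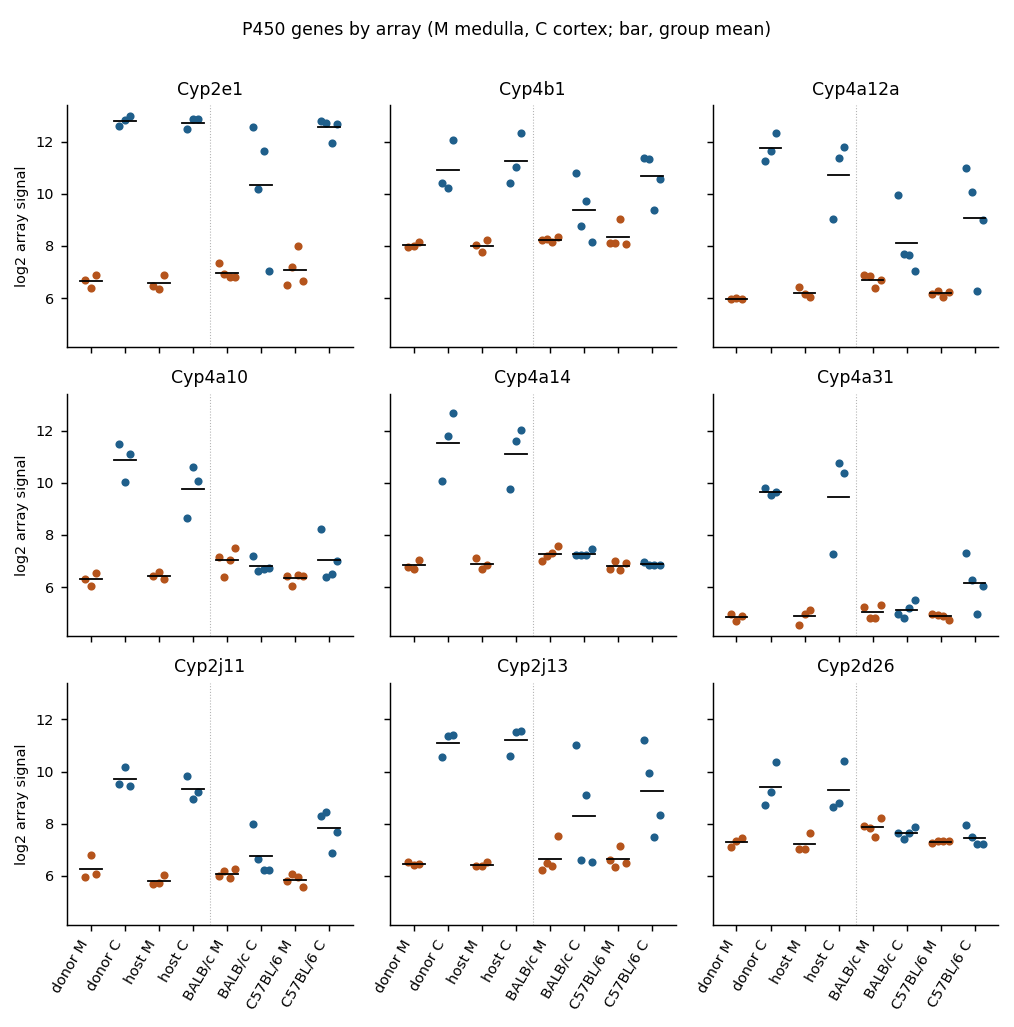
Log2 array signal of 9 P450 genes in every array, medulla (orange) left of cortex (blue) for donor, host, BALB/c and C57BL/6 cells, with group means as bars. Graft cortex is high for all 9, whereas homeostatic cortex is high for Cyp2e1 in every array but BALB/c replicate 4 and at the medullary level for Cyp4a14, with 6.83 to 7.47.

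Families 1 to 3, the P450s best known for foreign compounds, were mostly too dim to test: 20 of 53 passed the filter, and 4 of them were lower in medulla in both donor and host cells (Cyp2e1, Cyp2d26, Cyp2j11 and Cyp2j13). Of all genes tested, 1.92% were lower in donor and 2.43% in host medulla. Cyp2e1, Cyp2j11 and Cyp2j13 met the filter through cortex, where they were high, so nothing is read from the count. Cyp2e1, which oxidises ethanol and other small molecules, had the largest fitted difference of any member, with medullary values below the 40th percentile in every graft array. It had 6.69, 6.39 and 6.87 in donor medulla, against 12.59, 12.82 and 12.97 in donor cortex (-6.15 ± 0.78, adjusted p = 3.2e-05). Host medulla had 6.48, 6.36 and 6.88, against 12.47, 12.85 and 12.88 in host cortex (-6.16 ± 0.78, adjusted p = 2.5e-05). Within each region the 3 graft arrays differed by little beside that step. Homeostatic C57BL/6 cells shared it, with 6.52, 7.20, 8.01 and 6.64 in medulla, against 12.81, 12.73, 11.96 and 12.69 in cortex (-5.46 ± 0.67, adjusted p = 0.00021). BALB/c cortex was uneven, with 7.33, 6.94, 6.81 and 6.81 in medulla, against 12.57, 10.18, 11.63 and 7.03 in cortex, and the difference did not pass (-3.38 ± 0.67, adjusted p = 0.053). Its cortex replicate 4 lay at the level of medulla.

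Cyp2d26, a member of the mouse Cyp2d cluster, had 7.12, 7.35 and 7.44 in donor medulla, against 8.72, 9.20 and 10.35 in donor cortex (-2.12 ± 0.37, adjusted p = 0.0013). Host medulla had 7.04, 7.02 and 7.64, against 8.65, 8.79 and 10.42 in host cortex (-2.06 ± 0.37, adjusted p = 0.0012). BALB/c medulla had 7.93, 7.83, 7.49 and 8.21, against 7.66, 7.41, 7.65 and 7.88 in BALB/c cortex, and C57BL/6 medulla had 7.27, 7.32, 7.34 and 7.32, against 7.96, 7.48, 7.23 and 7.22 in C57BL/6 cortex. The regions overlapped in both strains. Cyp2b23, whose role in kidney is little described, was higher in donor medulla, with 8.13, 9.18 and 8.42, against 7.63, 7.87 and 7.66 in donor cortex (0.85 ± 0.23, adjusted p = 0.047). That call was lost without any 1 of 5 of the 6 arrays compared. Host cells had 7.69, 7.82 and 8.31 in medulla, against 7.73, 7.98 and 7.77 in cortex. For Cyp2b23 BALB/c medulla had 8.45, 8.30, 8.42 and 8.82, against 8.27, 8.65, 9.07 and 8.88 in BALB/c cortex, and C57BL/6 medulla had 8.31, 8.13, 8.02 and 8.11, against 7.82, 8.24, 8.21 and 8.07 in C57BL/6 cortex. Regions overlapped in these 3 kinds of cells, and none of the 3 differences passed. The Ah-receptor target Cyp1a1, a classical sign of dioxin-like ligands, was untested in all comparisons, with group means between 6.35 and 7.14.

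Among flavin monooxygenases, Fmo1 and Fmo2 parted ways. Fmo1, the main form of mouse kidney, had 7.74, 8.34 and 8.12 in donor medulla, against 12.64, 12.47 and 13.22 in donor cortex (-4.71 ± 0.69, adjusted p = 0.00016, 26.2-fold lower). Host medulla had 7.48, 7.39 and 8.00, against 11.72, 12.98 and 12.98 in host cortex (-4.94 ± 0.69, adjusted p = 7.1e-05). Cortex was far above medulla in every graft. In homeostatic C57BL/6 cells Fmo1 had 8.05, 7.78, 8.53 and 7.84 in medulla, against 11.87, 10.92, 9.60 and 10.20 in cortex (-2.60 ± 0.59, adjusted p = 0.09). In BALB/c cells it had 8.33, 7.80, 7.80 and 8.19 in medulla, against 11.86, 7.94, 8.30 and 8.28 in cortex, where 1 array of 4 was high.

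Fmo2, the form best known from lung, was high in both regions of the graft. It had 11.21, 10.80 and 10.19 in donor medulla, against 7.66, 7.11, 8.49 and 7.73 in BALB/c medulla (2.99 ± 0.73, adjusted p = 0.031). Host medulla had 11.87, 11.51 and 11.85, against 6.84, 8.21, 6.26 and 7.31 in C57BL/6 medulla (4.59 ± 0.73, adjusted p = 0.00014). Graft and homeostatic medulla did not overlap in either pair, although the donor call was lost without any 1 of 5 of its 7 arrays. In cortex Fmo2 had 11.71, 11.77 and 11.86 in donor cells, against 10.88, 7.22, 6.97 and 7.76 in BALB/c cells (3.57 ± 0.73, adjusted p = 0.002), and 10.90, 12.13 and 12.58 in host cells, against 11.59, 9.92, 8.60 and 8.96 in C57BL/6 cells (2.10 ± 0.73, not passing). Medulla against cortex within the graft did not pass for Fmo2 (-1.04 ± 0.78 in donor and -0.12 ± 0.78 in host cells). Collecting duct markers (10 genes) were higher in host medulla: their mean was 9.25 ± 0.20, against 7.62 ± 0.05 in C57BL/6 medulla with 6 of 10 higher, and 8.95 ± 0.39 in donor medulla, against 8.32 ± 0.25 in BALB/c medulla with 1 of 10 higher. In donor cortex they averaged 8.98 ± 0.15, against 8.20 ± 0.22 in BALB/c cortex, with 1 higher and 1 lower. The 9 markers of the loop of Henle and distal tubule averaged 9.44 ± 0.26 in host medulla, against 7.94 ± 0.83 in C57BL/6 medulla, with 3 higher. In donor medulla they averaged 9.41 ± 0.06, against 8.72 ± 0.46 in BALB/c medulla, with 0 called by limma and 0 at an unadjusted p under 0.05. Loop and distal markers averaged 10.40 ± 1.07 in donor cortex, against 8.63 ± 1.09 in BALB/c cortex. There 3 of 9 were higher and 0 lower, where 7.91% of all genes tested were higher. The part of these markers in the Fmo2 result was not tested. Fmo5 had 7.78 ± 0.07 in donor medulla and 8.29 ± 0.58 in donor cortex, and 7.90 ± 0.23 in host medulla and 8.85 ± 0.90 in host cortex, with no call in any comparison. The remaining 2 forms, Fmo4 and Fmo9, were below the filter.

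**Figure D3:**
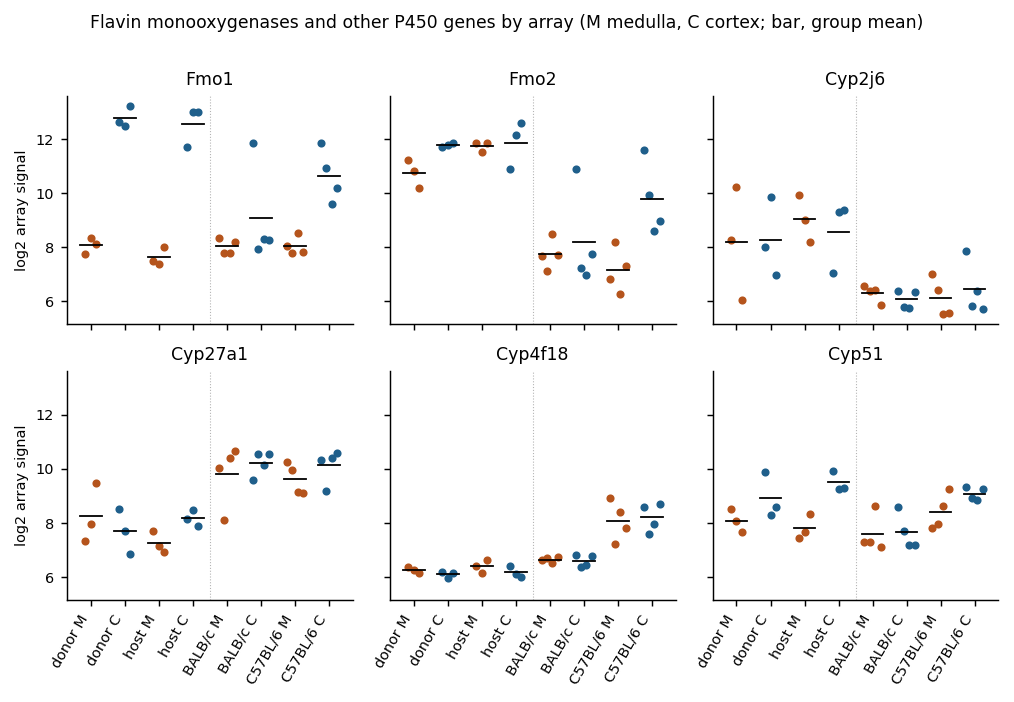
Log2 array signal of Fmo1, Fmo2, Cyp2j6, Cyp27a1, Cyp4f18 and Cyp51 in every array, medulla (orange) left of cortex (blue), with group means as bars. Fmo2 is above 10 in every graft array of both regions, Cyp27a1 has group means of 7.26 to 8.25 in the graft and 9.61 to 10.21 in homeostatic cells, and Cyp4f18 is above 7 in C57BL/6 arrays and below it in all others.

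The homeostatic kidneys gave fewer calls than the grafts. C57BL/6 cells had 2 members lower in medulla, Cyp2e1 and Cyp2j11, where 0.146% of all genes tested were lower, 0.00697% higher and 0.153% either. BALB/c cells had 0 members called by limma, where 0.0488% of all genes were lower, 0.0209% higher and 0.0697% either, and 5 members had an unadjusted p under 0.05. Between the strains, the step in BALB/c minus the step in C57BL/6 cells had 0 calls by limma, with 4 members at an unadjusted p under 0.05. Of all genes, 0.0349% were called lower there, 0.00697% higher and 0.0418% either. Whether the regional step itself differed between graft and homeostatic cells was tested by interaction contrasts. It was more negative in donor than in BALB/c cells for 5 members, and less negative or positive for 0, where 0.397% of all genes were lower, 0.0558% higher and 0.453% either: Cyp4a10 (-4.79 ± 0.59, adjusted p = 1e-04), Cyp4a14 (-4.67 ± 0.61, adjusted p = 0.00021), Cyp4a31 (-4.74 ± 0.76, adjusted p = 0.0025), Cyp2j11 (-2.73 ± 0.53, adjusted p = 0.012) and Cyp2d26 (-2.34 ± 0.49, adjusted p = 0.029). In host against C57BL/6 cells it was more negative for 3, where 0.397% of all genes were lower, 0.502% higher and 0.899% either: Cyp4a14 (-4.17 ± 0.61, adjusted p = 0.00051), Cyp4a31 (-3.33 ± 0.76, adjusted p = 0.032) and Cyp4a10 (-2.64 ± 0.59, adjusted p = 0.028). Cyp4a10, Cyp4a14 and Cyp4a31 met the filter through graft cortex, where they were high, so both counts carry that choice. Without donor medulla replicate 1, Cyp2j11 lost its call, and without any 1 of 7 arrays Cyp2d26 did. The host calls of Cyp4a10 and Cyp4a31 were lost without any 1 of 10 and 11 of 14 arrays. For Cyp2e1 the regional step of host minus that of C57BL/6 cells was -0.70 ± 1.03, and that of donor minus BALB/c cells -2.76 ± 1.03 (adjusted p = 0.97 and 0.40).

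The mouse numbers pair cortex with medulla. Every graft had the 11 members lower in medulla in both donor and host cells (3 of 3 pairs each), with paired differences from -6.44 to -5.90 for Cyp2e1 in donor cells and from -5.18 to -2.63 for Cyp4a14 in host cells. The 11 were chosen by their calls on these same arrays, so nothing is read from the count of pairs. When each pair of groups was fitted alone with mouse as a fixed block, the calls came to 8 in donor, 3 in host and 0 in C57BL/6 cells by limma, with 17, 13 and 10 members at an unadjusted p under 0.05. Of all 14346 genes tested, 69, 64 and 1 were called in these 3 fits. Cyp2e1, Cyp2j13 and Fmo1 were called in both graft cell types under the block, while Cyp4a14 was not (adjusted p = 0.1 in donor and 0.17 in host cells), nor Cyp2e1 in C57BL/6 cells (adjusted p = 0.2). The regional contrasts had 3 calls for donor and 1 for host cells under the block, and nothing is read from these counts.

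The tubule P450s can be read beside the tubule markers. The mean of 7 P450 genes known from kidney tubules was 6.76, 6.65 and 6.91 in donor medulla, against 10.52, 10.70 and 11.46 in donor cortex, and 6.89, 6.71 and 6.85 in host medulla, against 9.36, 10.92 and 11.10 in host cortex. Of these 7, 6 were lower in the medulla of both, all but Cyp27b1. Of all genes tested, 1.92% were lower in donor and 2.43% in host medulla. Cyp2e1, Cyp4a10, Cyp4a12a, Cyp4a12b and Cyp4a14 met the filter through cortex, where they were high, so nothing is read from the count. Of the proximal tubule markers, 13 of 14 were lower in donor and in host medulla, 4 of 14 in C57BL/6 and 0 of 14 in BALB/c medulla by limma (4 at an unadjusted p under 0.05 in BALB/c). Over all genes tested, 0.146% were lower in C57BL/6 and 0.0488% in BALB/c medulla. Their array means in cortex were 11.18, 10.89 and 11.89 in donor cells, 10.43, 11.48 and 11.89 in host cells, 9.80, 8.35, 8.99 and 7.95 in BALB/c cells and 11.11, 9.86, 9.21 and 10.00 in C57BL/6 cells. Within BALB/c cortex, replicate 1 was highest and replicate 4 lowest for these markers. So they were for Cyp2e1, Cyp4a12a, Cyp4a12b, Cyp4b1, Cyp2j11 and Cyp2j13. For Cyp4a10 and Fmo1 replicate 1 was highest and replicate 2 lowest, and for Cyp4a14, Cyp4a31 and Cyp2d26 replicate 4 was highest. The part of tubule RNA in these results was not tested. Leukocyte markers fell in host medulla (9.02 ± 0.62, against 11.25 ± 1.03 in host cortex, 5 of 8 lower) and 0 of 8 were called by limma in donor medulla, 0 also at an unadjusted p under 0.05 (11.16 ± 1.01, against 11.60 ± 0.43 in donor cortex).

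**Figure D4:**
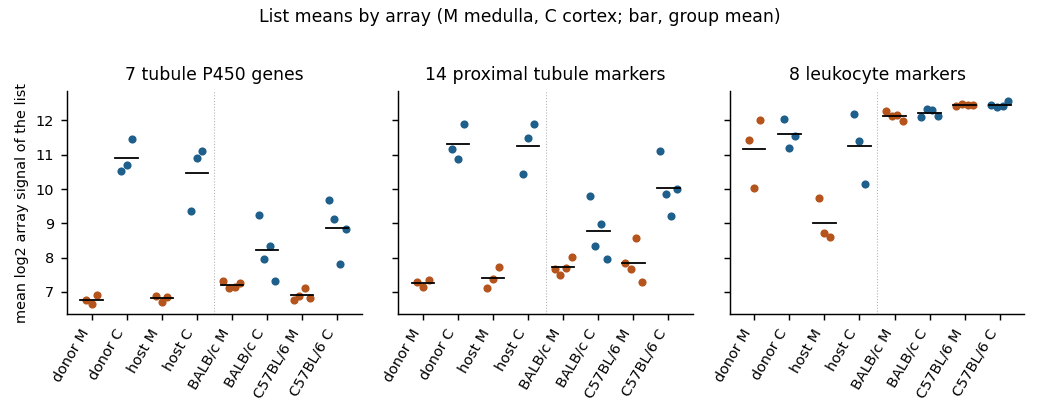
Mean log2 array signal, per array, of 7 kidney tubule P450 genes, 14 proximal tubule markers and 8 leukocyte markers, medulla (orange) left of cortex (blue), with group means as bars. The first 2 lists are high in graft cortex and low in every medulla group, and leukocyte markers are lowest in host medulla.

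Graft cells were then set against homeostatic cells of the same strain label within a region. Host cells came from grafts whose donor cells are labelled BALB/c. Kidney RNA in host arrays would then be of another strain than in C57BL/6 arrays. Strain and graft cannot be told apart for such RNA, here or in the regional step of host minus C57BL/6 cells. In cortex, donor cells had 14 members higher and 8 lower than BALB/c cells, where 7.91% of all genes tested were higher, 16.1% lower and 24% either. The same tubule-type genes led: Cyp4a31 (4.54 ± 0.54), Cyp4a14 (4.23 ± 0.43), Cyp4a10 (4.07 ± 0.42), Fmo1 (3.68 ± 0.64), Cyp4a12a (3.65 ± 0.78), Fmo2 (3.57 ± 0.73), Cyp4a12b (3.23 ± 0.69), Cyp2j11 (2.93 ± 0.37), Cyp2j13 (2.79 ± 0.81), Cyp2e1 (2.44 ± 0.73), Cyp2j6 (2.20 ± 0.78), Cyp2d26 (1.77 ± 0.35), Cyp4b1 (1.54 ± 0.55) and Cyp51 (1.26 ± 0.43), with adjusted p between 2.4e-06 and 0.045. Of these 14, Cyp2j6 and Cyp4b1 each lost their call without any 1 of 6 of the 7 arrays, Cyp51 without any 1 of 4, Cyp2j13 without any 1 of 3, and Cyp2e1 without donor cortex replicate 1 or 2, its difference ranging from 1.34 to 3.18 when 1 array was left out. Of the 8 lower, Cyp27a1 fell by 2.51 and the others, which include Cyp2b10, Cyp2d9 and the pseudogene Cyp2d37-ps, fell by 0.44 to 0.99. Cyp4a14, Cyp4a31 and Cyp4a10 met the filter through graft cortex and Cyp2j6 through graft arrays, where they were high. Cyp2b10 and Cyp2d9 met it through BALB/c arrays, where they were high, so the counts of 14 and 8 both carry that choice. The median of all genes tested stood at -0.13 in this comparison, and the lower calls depended on the processing, with 31 lower when dim genes were kept and 5 after a second quantile normalization. Without donor cortex replicate 1 or replicate 2 the count came to 14. Proximal tubule markers were also higher in donor cortex, 10 of 14.

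Host cortex had 5 members higher and 2 lower than C57BL/6 cortex, where 2.01% of all genes were higher, 2.13% lower and 4.14% either. Cyp4a14 (4.23 ± 0.43, adjusted p = 1e-06), Cyp4a31 (3.32 ± 0.54), Cyp4a10 (2.74 ± 0.42), Cyp2d26 (1.81 ± 0.35) and Cyp2j11 (1.49 ± 0.37, lost without any 1 of 4 of the 7 arrays) were higher, and Cyp4f18 and Cyp27a1 lower. Cyp4a14, Cyp4a31 and Cyp4a10 met the filter through graft cortex, where they were high, so the count of 5 higher carries that choice. Cyp4f18 met it only through C57BL/6 arrays, where it was high, so the count of 2 lower does too. Proximal tubule markers were higher for 3 of 14. Cyp2e1, which was already high in C57BL/6 cortex, differed by 0.19 ± 0.73 in host cortex. In medulla, donor cells had 1 member higher than BALB/c cells, Fmo2 and 0 lower (1.73% of all genes higher, 1.45% lower, 3.18% either), and host cells had 2 higher and 3 lower than C57BL/6 cells (6.27% and 5.21% of all genes, 11.5% either). The 2 were Fmo2 and Cyp2j6 (2.91 ± 0.78, adjusted p = 0.015), and the 3 were Cyp27a1, Cyp4f18 and Cyp4f16. Cyp2j6 met the filter through graft arrays and Cyp4f18 through C57BL/6 arrays, where each was high, so both counts carry that choice. Cyp2j6 varied widely within the graft, with 9.94, 9.00 and 8.20 in host medulla, against 7.02, 6.43, 5.54 and 5.57 in C57BL/6 medulla, and with 8.27, 10.24 and 6.05 in donor medulla, against 6.56, 6.37, 6.42 and 5.88 in BALB/c medulla. The call of Cyp2j6 in host medulla was lost without host medulla replicate 1, and that of Cyp4f16 (-1.84) without any 1 of 6 of the 7 arrays.

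**Figure D5:**
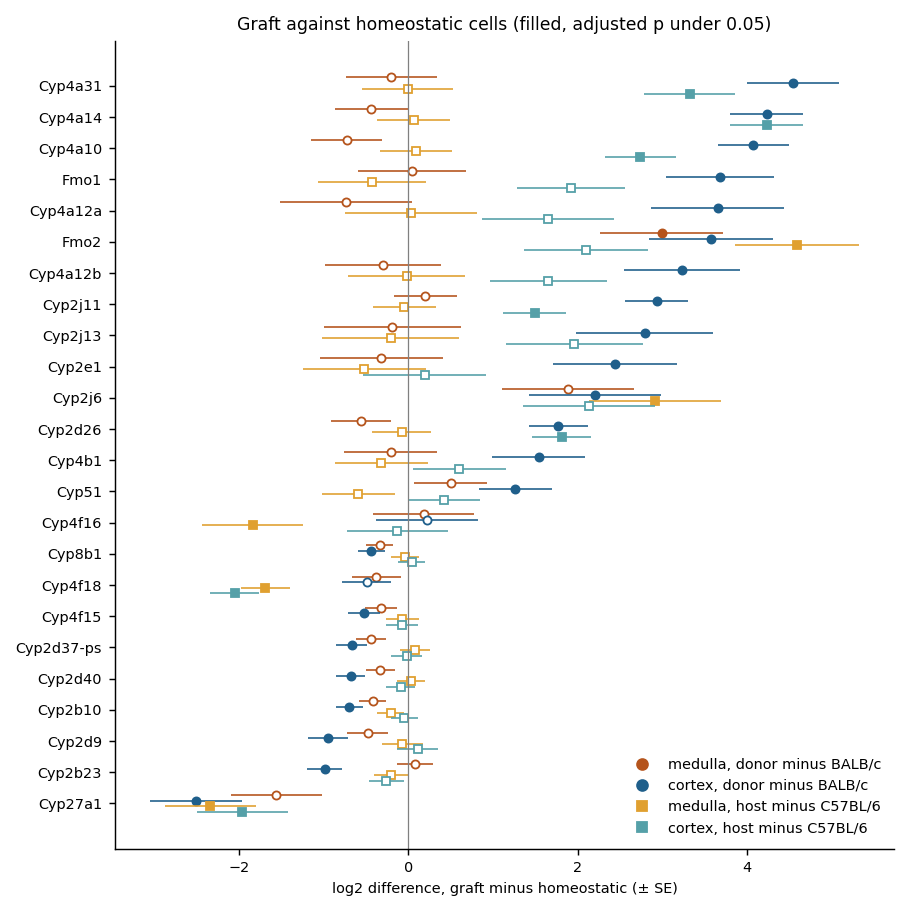
Graft minus homeostatic log2 difference with standard errors for the 24 members called in any of 4 comparisons, donor against BALB/c and host against C57BL/6 cells in medulla and cortex, filled where the adjusted p was under 0.05. The Cyp4a genes are shifted right in cortex and lie near 0 in medulla, and Fmo2 is shifted right in both regions.

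Of 5 P450s known from myeloid cells, 3 were tested, and Cyp1b1 and Cyp7b1 were below the filter. Of the 3, Cyp4f18 and Cyp27a1 were lower in host than in C57BL/6 cells of both regions, Cyp27a1 was lower in donor than in BALB/c cortex, and 0 were called by limma in donor medulla, with 1 at an unadjusted p under 0.05. Cyp4f18, the enzyme that hydroxylates and so inactivates leukotrienes in mouse myeloid cells, had 6.40, 6.17 and 6.64 in host medulla, against 8.93, 7.23, 8.39 and 7.80 in C57BL/6 medulla (-1.69 ± 0.29, adjusted p = 0.00025). Host cortex had 6.40, 6.11 and 6.01, against 8.59, 7.60, 7.98 and 8.72 in C57BL/6 cortex (-2.05 ± 0.29, adjusted p = 7.8e-05). No host array reached a C57BL/6 one. Donor and BALB/c arrays lay between 5.98 and 6.81 in both regions, which was not tested against C57BL/6 arrays. Macrophage markers moved with Cyp4f18, all 7 lower in host than in C57BL/6 cells of either region, with means of 8.20 ± 0.15 in host medulla against 12.27 ± 0.06 in C57BL/6 medulla, and 7.97 ± 0.34 in host cortex against 12.15 ± 0.05 in C57BL/6 cortex. Leukocyte and dendritic cell markers moved with it too. In medulla 8 of 8 leukocyte markers were lower in host cells (9.02 ± 0.62, against 12.44 ± 0.03 in C57BL/6 cells), as were 7 of 7 tested dendritic cell markers (8.67 ± 0.43, against 11.04 ± 0.16 over 8 measured). In cortex 1 of 8 leukocyte markers (11.25 ± 1.03 in host, against 12.46 ± 0.07 in C57BL/6 cells) and 4 of 7 dendritic cell markers (9.98 ± 0.67, against 10.86 ± 0.22) were lower. In BALB/c cells, where Cyp4f18 was low, the macrophage markers averaged 12.14 ± 0.05 in medulla and 11.95 ± 0.20 in cortex. The part of these marker changes in the Cyp4f18 and Cyp27a1 results was not tested.

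Cyp27a1, the mitochondrial sterol hydroxylase of macrophages and liver that also acts on vitamin D, had 7.69, 7.16 and 6.94 in host medulla, against 10.24, 9.96, 9.14 and 9.10 in C57BL/6 medulla (-2.34 ± 0.54, adjusted p = 0.0049). Host cortex had 8.13, 8.47 and 7.90, against 10.32, 9.18, 10.42 and 10.59 in C57BL/6 cortex (-1.96 ± 0.54, adjusted p = 0.041), a call lost without any 1 of 6 of its 7 arrays. Host and C57BL/6 arrays did not overlap in either region. Donor cortex had 8.52, 7.72 and 6.86, against 9.59, 10.55, 10.13 and 10.55 in BALB/c cortex (-2.51 ± 0.54, adjusted p = 0.0031), and in medulla the fitted difference of -1.56 ± 0.54 did not pass. Macrophage markers averaged 11.04 ± 0.47 in donor cortex and 11.95 ± 0.20 in BALB/c cortex, with 2 of 7 lower, and of 8 leukocyte markers 0 were called there by limma (1 at an unadjusted p under 0.05), of 7 dendritic cell markers 3 lower.

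Sterol, vitamin and hormone enzymes were otherwise quiet or dim. Cyp51, which removes a methyl group from lanosterol on the way to cholesterol, was lower in host medulla, with 7.45, 7.68 and 8.35, against 9.93, 9.27 and 9.31 in host cortex (-1.68 ± 0.45, adjusted p = 0.035). That call was lost without any 1 of 5 of the 6 arrays. Donor medulla had 8.51, 8.08 and 7.68, against 9.87, 8.29 and 8.58 in donor cortex (-0.83 ± 0.45, adjusted p = 0.43). For Cyp51 BALB/c medulla had 7.31, 7.30, 8.61 and 7.13, against 8.58, 7.70, 7.18 and 7.18 in BALB/c cortex, and C57BL/6 medulla had 7.82, 7.95, 8.63 and 9.27, against 9.32, 8.93, 8.86 and 9.25 in C57BL/6 cortex. Regions overlapped in these 3 kinds of cells. Cyp46a1, the cholesterol hydroxylase of neurons, was higher in donor medulla, with 7.85, 8.37 and 8.36, against 7.29, 7.29 and 7.78 in donor cortex (0.74 ± 0.17, adjusted p = 0.016), a call lost without any 1 of 4 of the 6 arrays. The groups did not overlap, but host medulla (7.60, 7.64 and 8.09) and host cortex (7.41, 7.69 and 7.85) did. For Cyp46a1 BALB/c medulla had 7.92, 7.73, 7.65 and 8.04, against 7.76, 7.82, 7.77 and 7.71 in BALB/c cortex, and C57BL/6 medulla had 7.72, 7.76, 7.61 and 7.64, against 7.47, 7.47, 7.68 and 7.70 in C57BL/6 cortex, and both pairs overlapped. Cyp27b1, which makes the active form of vitamin D in the proximal tubule and in activated macrophages, had group means between 7.15 and 7.54 with no call in any comparison. Of the retinoic acid hydroxylases 2 of 3 were tested, Cyp26b1 among them, and of the steroid hormone enzymes 1 of 5, with no call in any comparison. Of the 47 untested members, 40 were below the 40th percentile in every array, among them the Cyp3a genes measured. Cyp2c23 reached 8.92 in donor cortex replicate 3 and Cyp7b1, an oxysterol hydroxylase, 9.24 in host cortex replicate 1, each a single array far above its gene's median of 6.69 and 6.33.

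The genes that supply or regulate P450s were followed as a separate list of 25 measured, 24 of them tested. In donor cells 4 were lower and 0 higher in medulla: Vdr, the vitamin D receptor (-2.34 ± 0.40, adjusted p = 0.001), Hnf4a, a transcription factor of proximal tubule and liver (-2.15 ± 0.49, adjusted p = 0.014), Ephx2, which hydrolyses the epoxides that Cyp2j and Cyp2c enzymes make (-2.21 ± 0.44, adjusted p = 0.0051), and Ppara, the receptor that drives Cyp4a genes (-1.21 ± 0.28, adjusted p = 0.018). In host cells Vdr (-2.40 ± 0.40) and Hnf4a (-2.51 ± 0.49) were lower, and in homeostatic cells of both strains 0 of 24 were called by limma, with 3 at an unadjusted p under 0.05 in each. Ppara averaged 7.53 ± 0.26 in donor medulla and 8.74 ± 0.87 in donor cortex, and 7.31 ± 0.16 in host medulla and 7.46 ± 0.16 in host cortex. Its part in the Cyp4a results was not tested. In donor against BALB/c cortex 8 of the 24 were higher and 0 lower, where 7.91% of all genes tested were higher. They were Hnf4a (2.23 ± 0.45), Ephx2 (1.97 ± 0.41), Vdr (1.74 ± 0.38), Cyb5b (1.66 ± 0.48), Cyb5r3 (1.49 ± 0.53), Ppara (1.34 ± 0.27), Alas1 (0.83 ± 0.29) and Pgrmc2 (0.77 ± 0.28), with adjusted p between 0.0017 and 0.048. In host against C57BL/6 medulla 3 of 24 were higher and 0 lower, where 6.27% of all genes were higher: Cyb5b, Pgrmc1 (1.70 ± 0.52) and Alas1 (1.00 ± 0.29), the enzyme that starts haem synthesis. In host against C57BL/6 cortex Vdr (1.65 ± 0.38) and Hnf4a (1.62 ± 0.45) were the 2 of 24 higher, where 2.01% of all genes were. Cyb5b, a cytochrome b5 of the outer mitochondrial membrane, was higher in the graft medulla, by 2.35 ± 0.48 in donor against BALB/c cells (adjusted p = 0.013) and by 2.26 ± 0.48 in host against C57BL/6 cells (adjusted p = 0.0025).

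Of the 12 members lower in host medulla, 8 lay on chromosome 4, in separate runs of Cyp4 and Cyp2j genes, and chromosomes 1, 5, 7 and 15 held 1 each (Fmo1, Cyp51, Cyp2e1 and Cyp2d26). No test of position was made. In the RefSeq gene order of GRCm38.p6, chromosome 4 holds a run of 10 neighbouring genes from Cyp4x1 to Cyp4b1, of which 7 were measured and 6 tested, and all 6 tested were lower in both donor and host medulla. Of these 6, 5 met the filter through cortex arrays where they were high, so they had to differ and nothing is read from the count. A Cyp2j run of 7 genes on the same chromosome had 5 measured and 4 tested, with 2 lower. By contrast, the Cyp2c run of 14 genes on chromosome 19 had 12 measured, 1 tested and 0 lower, and a Cyp3a run of 8 on chromosome 5 had 5 measured and 0 tested. On chromosome 1, Fmo1 was called lower in both and its neighbour Fmo2 was not. Members of a run share sequence as well as position, so they are not independent of each other on an array.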

How the data were processed

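Values were used as the authors deposited them, as log2 signal summarised by RMA in the oligo package according to the submitters' processing notes, which name no version. Of 22549 probesets, 20646 have 1 gene symbol in the platform annotation and were used, leaving out 551 that list several and 1352 that list none. All 91 members matched a RefSeq gene of the same symbol and had 1 probeset each. The test took genes that exceeded the 40th percentile of an array (7.26 to 7.62) in 3 or more of the 28 arrays of any group. The model, in limma 3.58.1 under R 4.3.3, had 8 group means and 20 residual degrees of freedom, with 2-sided moderated tests and Benjamini-Hochberg adjustment over 14346 genes in each of 11 comparisons. Levels of different genes were not compared. Precision is limited by the number of arrays.

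The labels call the samples biological replicates, and the mouse numbers pair cortex with medulla and donor with host cells. As a check, residuals of arrays of 1 mouse correlated on average by 0.155 between medulla and cortex of donor cells, 0.106 of host cells, -0.006 of BALB/c and -0.003 of C57BL/6 cells, and by 0.171 between donor and host medulla and 0.22 between donor and host cortex. The model had no term for mouse. Alternatives were mouse as a random or a fixed block, no or a strict filter, renewed quantile normalization, a robust trend of the variance, the compared groups fitted alone, array weights and each array left out. Members, lists and tests were chosen with earlier results of these data known. Members that passed in any of 4 medulla-cortex comparisons are described with every array, and other passing members or the 10 brightest may be named. Promoters are from RefSeq (GRCm38.p6). Cyp24a1, Cyp2j5, Cyp19a1, Por and Fdxr were not analysed here.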

Additional observations from a re-analysis of the deposited data

Results flagged for a closer look

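Among 25 members called in any comparison, 100 groups of 4 homeostatic arrays were examined for an array far from the other 3 (Dixon's ratio), and 11 were found, where chance gives about 1 in 20. Fmo1 had 11.86 in BALB/c cortex replicate 1, against 7.94 to 8.30 in the others. Cyp2e1 had 11.96 in C57BL/6 cortex replicate 3, against 12.69 to 12.81. Cyp4b1 had 9.04 in C57BL/6 medulla replicate 3, against 8.07 to 8.13. Cyp4a10 had 6.04 in C57BL/6 medulla replicate 2, against 6.42 to 6.47, and Cyp4a14 had 7.47 in BALB/c cortex replicate 4, against 7.21 to 7.23. Cyp51 had 8.61 in BALB/c medulla replicate 3, against 7.13 to 7.31. Cyp4f16 stood apart in 3 groups, with 9.78 in BALB/c medulla replicate 2 (others 7.86 to 8.09), 10.40 in BALB/c cortex replicate 4 (others 7.74 to 8.04) and 9.81 in C57BL/6 cortex replicate 2 (others 7.73 to 7.94). Cyp4f15 had 7.27 in BALB/c medulla replicate 3, against 7.57 to 7.60, and 7.64 in C57BL/6 cortex replicate 1, against 6.94 to 7.00.

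The step between medulla and cortex differed between graft and homeostatic cells by the interaction test for 8 differences. They were -4.79 (Cyp4a10), -4.74 (Cyp4a31), -4.67 (Cyp4a14), -2.73 (Cyp2j11) and -2.34 (Cyp2d26) for donor minus BALB/c cells, and -4.17 (Cyp4a14), -3.33 (Cyp4a31) and -2.64 (Cyp4a10) for host minus C57BL/6 cells. The Cyp4a genes here met the filter through graft cortex, where they were high.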

How the results depend on the processing

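Of 1092 alternative values of the 70 member differences called, 912 kept their call, 180 lost it and 0 reversed. The 11 members lower in both donor and host medulla kept their call in donor and in host cells without any 1 array. With mouse as a fixed replicate block, members called came to 8 (donor medulla against cortex), 3 (host), 0 (C57BL/6, with 10 at an unadjusted p under 0.05), 3 (regional difference of donor minus BALB/c) and 1 (host minus C57BL/6), and with mouse as a random replicate block to 4 (C57BL/6) and 1 (BALB/c), with no other count moved over 1.5 times. Of all 14346 genes tested, the fixed block called 69 in donor, 64 in host and 1 in C57BL/6 regions. With the groups compared fitted alone, counts came to 5 in host regions, 1 in C57BL/6 regions, 1 for the host regional difference, 8 for donor against BALB/c cortex, 0 for donor against BALB/c medulla (5 at an unadjusted p under 0.05) and 3 for host against C57BL/6 cortex. The strict filter, which tests fewer members, gave 1 (C57BL/6 regions), 1 (BALB/c regions), 2 and 1 (regional differences of donor and host), 13 (donor against BALB/c cortex), 3 and 3 (host against C57BL/6 cortex and medulla). No filter gave 45 for donor against BALB/c cortex and 6 in medulla. A second quantile normalization gave 1 in BALB/c regions and 3 for the donor regional difference, and array weights gave 7 in C57BL/6 regions. Apart from the filters' effect on the genes tested, the cause was not tested.

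Without 1 array at a time, members called ranged from 11 to 13 (donor regions), 11 to 12 (host regions), 1 to 6 (C57BL/6 regions, 6 without cortex replicate 3), 0 to 1 (BALB/c regions, 1 without cortex replicate 4), 3 to 7 (donor regional difference), 1 to 4 (host regional difference), 14 to 23 (donor against BALB/c cortex), 0 to 3 (donor against BALB/c medulla), 5 to 8 (host against C57BL/6 cortex) and 4 to 6 (host against C57BL/6 medulla).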
